A study of Homo sapiens with 8 samples.

Results

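The human IFIT genes IFIT2, IFIT3, IFIT1B, IFIT1 and IFIT5 lie side by side on chromosome 10, and their chromatin was followed through ATAC-seq peak lists, in which a peak is a stretch where a transposase cut the DNA more often than the background. The 5 genes are all the members named for this cluster, of 19974 protein-coding genes on chromosomes 1 to 22 and X. They were chosen by the number of peaks around IFIT3, which was known to be lower under ACBI1 than under DMSO in these samples, so every difference between ACBI1 and DMSO at these genes is given here as a description with no test. In each list, the peaks in each gene body and 50 kb either side were taken. These windows overlap, and together they run from chr10:89252046-89470997 (GRCh38), a stretch of 219 kb.

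The samples were 2 human lung cancer cell lines, H1975, an EGFR-mutant adenocarcinoma line, and HCC44, a non-small cell lung cancer line, both labelled WT in genotype. Cells of each line were cultured for 96 h in the solvent DMSO or in ACBI1, a PROTAC that leads SMARCA2, SMARCA4 and PBRM1, subunits of the SWI/SNF chromatin remodelling complexes, to degradation. The labels give its dose as 1 mM. There were 4 groups of 2 replicates, and since the labels do not say that replicates came from separate cultures, the spread between them may be technical. The lists held 41027 to 50347 peaks under DMSO and 22133 to 27682 under ACBI1. They hold no read numbers, so the depth is unknown, and a peak that is not listed is no measurement of closed chromatin. Of 6 epithelial marker genes (EPCAM, KRT8, KRT18, KRT7, CDH1, CLDN4), 5 or 6 had a peak within 1 kb of a gene end in every sample. None of 3 endothelial markers had one in any sample. Of 5 leukocyte markers 2 or 3 had one, with CD14 and LAPTM5 in all 8 samples, CD3E in 3 and PTPRC in none, and of 4 fibroblast markers 2 or 3 had one.

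IFIT genes are interferon-stimulated genes. When a cell senses viral or displaced nucleic acid, or receives type I or type III interferon, factors that include IRF3, STAT2 and IRF9 bind interferon-response elements in the IFIT promoters. The proteins are built of tetratricopeptide repeats. IFIT1 binds viral RNA that lacks the methylated cap of host messages and blocks its translation, IFIT3 binds IFIT1 and stabilises it, IFIT2 binds AU-rich RNA and joins complexes with both, IFIT5 binds RNA with a 5′ triphosphate, and IFIT1B is a paralog of IFIT1. The STING pathway, which the series title names, leads to IRF3.

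The sequences just before the gene starts are shown because peak edges are compared with the interferon-response motif in them, which 4 of these 5 stretches hold. The RefSeq promoter table (GRCh38.p14) had entries for IFIT3 (2 starts), IFIT1B, IFIT1 and IFIT5, which is 4 of the 5 genes, and not for IFIT2. Each sequence below holds the 250 bases before a start, 5′ to 3′ on the + strand of the genome, which is also the strand of these genes. Capitals mark every match to GAAANNGAAA, searched on both strands. All 8 matches lie on the strand opposite to the gene and therefore read TTTCNNTTTC.
IFIT3, first start, chr10:89327747-89327996: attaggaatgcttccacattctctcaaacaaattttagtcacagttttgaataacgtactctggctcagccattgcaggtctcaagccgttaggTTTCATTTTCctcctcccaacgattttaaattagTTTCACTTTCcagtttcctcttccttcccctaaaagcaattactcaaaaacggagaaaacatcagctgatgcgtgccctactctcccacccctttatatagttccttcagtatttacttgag
IFIT3, second start, chr10:89332279-89332528: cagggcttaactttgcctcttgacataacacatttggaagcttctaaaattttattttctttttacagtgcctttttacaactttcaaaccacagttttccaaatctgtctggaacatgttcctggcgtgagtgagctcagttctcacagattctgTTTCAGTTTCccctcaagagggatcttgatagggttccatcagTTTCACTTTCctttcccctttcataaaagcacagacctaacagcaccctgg
IFIT1B, chr10:89377806-89378055: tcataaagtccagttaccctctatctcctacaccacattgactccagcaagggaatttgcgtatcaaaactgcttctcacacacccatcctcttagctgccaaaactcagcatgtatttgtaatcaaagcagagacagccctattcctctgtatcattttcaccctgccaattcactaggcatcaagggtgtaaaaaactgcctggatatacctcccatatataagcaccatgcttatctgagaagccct
IFIT1, chr10:89392373-89392622: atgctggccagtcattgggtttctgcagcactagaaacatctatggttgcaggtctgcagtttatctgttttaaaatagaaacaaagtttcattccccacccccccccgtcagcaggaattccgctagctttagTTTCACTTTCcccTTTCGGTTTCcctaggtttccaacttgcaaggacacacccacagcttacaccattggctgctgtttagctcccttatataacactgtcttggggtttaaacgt
IFIT5, chr10:89414318-89414567: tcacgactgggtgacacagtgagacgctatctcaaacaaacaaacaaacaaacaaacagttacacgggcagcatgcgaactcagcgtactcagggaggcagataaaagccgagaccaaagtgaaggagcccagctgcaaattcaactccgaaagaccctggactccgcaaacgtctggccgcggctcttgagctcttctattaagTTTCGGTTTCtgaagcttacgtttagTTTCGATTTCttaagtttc

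Both starts of IFIT3, the start of IFIT1 and that of IFIT5 each had 2 matches in these 250 bases, and IFIT1B had 0. At IFIT5, 1 further match spanned the start or lay after it. In the first IFIT3 promoter the matches lay 156 to 147 and 122 to 113 bp before the start, and in the second 94 to 85 and 51 to 42 bp before it. In IFIT1 they lay 116 to 107 and 103 to 94 bp before the start, and in IFIT5 45 to 36 and 19 to 10 bp before it. The matches counted here do not overlap each other. Of all 35116 promoters in the table, 3.02% had at least 1 match in the same 250 bases and 0.225% had at least 2. A match is a description of the letters, not a shown binding site.

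With DMSO, the 219 kb window held 9 to 11 peaks in every sample, and under ACBI1 4 to 6. In H1975 there were 11 and 11 peaks under DMSO and 6 and 4 under ACBI1. In HCC44 there were 10 and 9 under DMSO and 6 and 5 under ACBI1. The groups did not overlap in either line, and neither did the lengths of the whole lists. In H1975 the lists held 43525 and 41027 peaks under DMSO and 27682 and 22133 under ACBI1. In HCC44 they held 50347 and 49945 and then 26313 and 24862. The mean was 11.0 ± 0 (SD, n = 2) under DMSO and 5.00 ± 1.41 (SD, n = 2) under ACBI1 in H1975, a difference of −6.00 against a pooled replicate SD of 1.00. For HCC44 the means were 9.50 ± 0.707 and 5.50 ± 0.707 (SD, n = 2 each), a difference of −4.00 against an SD of 0.707. The peaks covered 6287 and 5358 bp under DMSO and 3393 and 1655 bp under ACBI1 in H1975, and 8514 and 9738 bp and then 2789 and 3064 bp in HCC44. When each list was limited to its 22133 peaks of highest −log10 q, H1975 had 4 peaks in each of its 4 samples. HCC44 then had 3 and 4 under DMSO and 4 and 5 under ACBI1. This limit removes the weaker peaks of the longer DMSO lists by construction, so nothing is read from it about the cause of the differences.

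**Figure D1:**
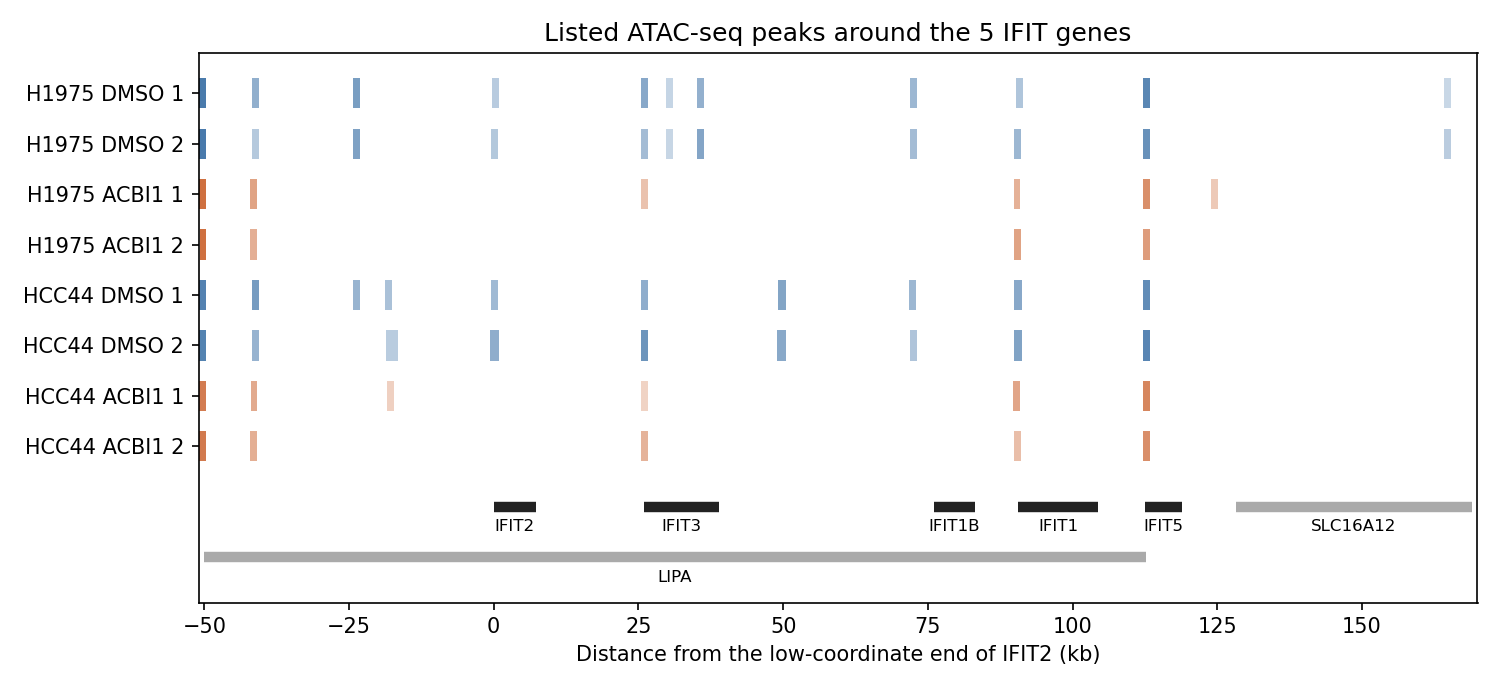
Listed peaks along the window, one row per sample (line, treatment, replicate), against the distance in kb from the low-coordinate end of IFIT2; blue is DMSO and orange ACBI1, darker boxes have a higher percentile of −log10 q within their own list, boxes narrower than 1.2 kb are drawn 1.2 kb wide, and bars below show protein-coding genes, IFIT genes in black. Boxes at LIPA, IFIT1 and IFIT5 run through all 8 rows, while the box at IFIT2 is in the 4 DMSO rows only.

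Around single genes, the counts under ACBI1 were lower than under DMSO in both replicates for 4 of the 5 genes in H1975 and for 5 of the 5 in HCC44. The same order was found in 50.6% of 17128 genes with a peak in each DMSO replicate in H1975, and in 64.1% of 17208 such genes in HCC44. The IFIT windows share most of their peaks, so the 5 counts are not independent, and nothing is read from them. IFIT3 (gene ID 3437, chr10:89327997-89340968) had 6 and 6 peaks under DMSO and 1 and 0 under ACBI1 in H1975, and 6 and 5 and then 2 and 1 in HCC44. These are the values that brought the cluster forward. IFIT2 (gene ID 3433, chr10:89302046-89309271) had 7 and 7 and then 3 and 2 in H1975, and 7 and 6 and then 4 and 3 in HCC44. IFIT1B (gene ID 439996, chr10:89378056-89385205) had 6 and 6 and then 4 and 2 in H1975, and 5 and 5 and then 3 and 3 in HCC44. IFIT1 (gene ID 3434, chr10:89392623-89406487) had 3 and 3 and then 3 and 2 in H1975, where the groups overlapped, and 4 and 4 and then 2 and 2 in HCC44. IFIT5 (gene ID 24138, chr10:89414568-89420997) had 4 and 4 and then 3 and 2 in H1975, and 3 and 3 and then 2 and 2 in HCC44.

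**Figure D2:**
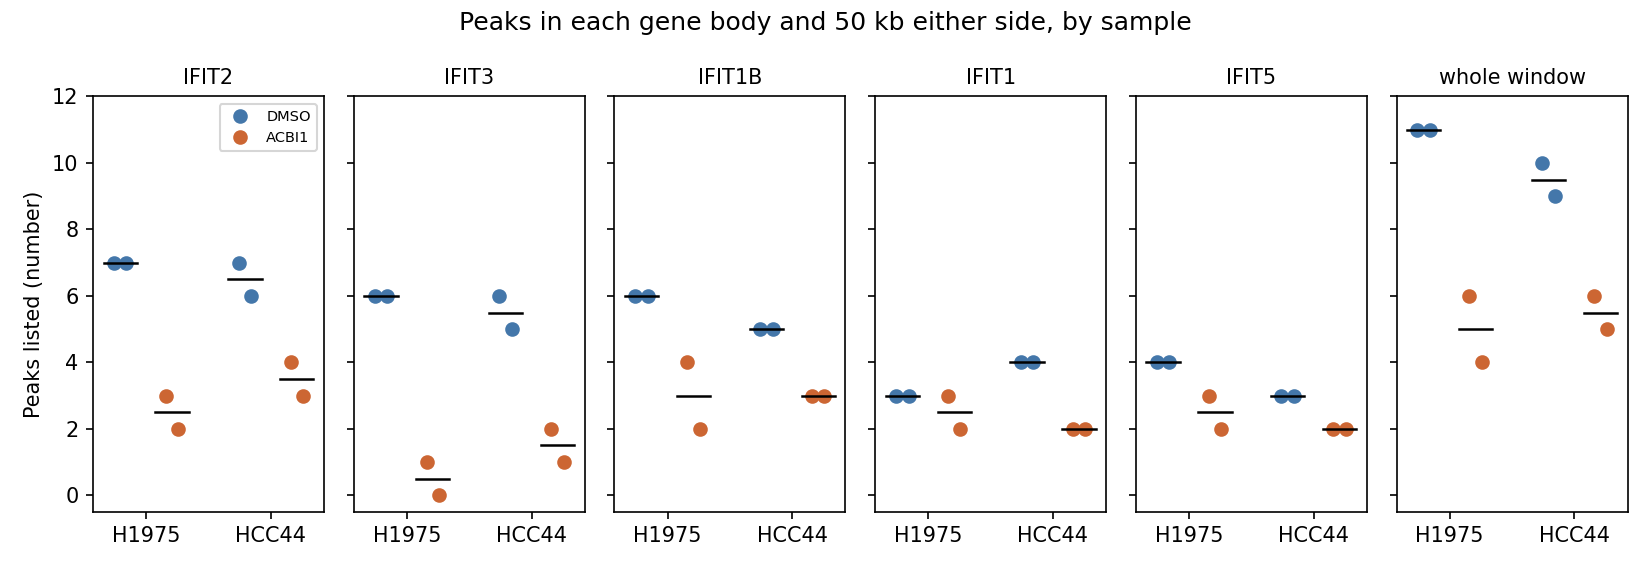
Number of listed peaks in each gene body and 50 kb either side, and in the whole window, per sample; points are replicates, black lines are the means of 2, blue is DMSO and orange ACBI1. For IFIT3 the ACBI1 points lie between 0 and 2 and the DMSO points at 5 or 6, while for IFIT1 in H1975 the groups share the value 3.

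The peaks of the 8 lists fell into 14 regions, numbered here from low to high coordinates. Of these, 4 had a peak in all 8 samples, 7 had a peak in no ACBI1 sample, and 7 lay within 1 kb of a gene start or, for IFIT2, of its low-coordinate end. A region was counted as lost in a line when it had a peak in each DMSO replicate and in neither ACBI1 replicate, as retained with a peak in all 4, and as gained in the reverse of lost. In H1975, 6 of the 11 regions with a peak in each DMSO replicate were lost and 4 retained, where 37.2% and 52.0% of all 38312 such regions of the line were. In HCC44, 3 of 9 were lost and 5 retained, where 49.2% and 44.6% of all 45137 were. In both lines 0 regions of the window were gained. Limited to the 22133 peaks of highest −log10 q in each list, 1 region was lost and 2 retained in H1975, and 0 lost and 2 retained in HCC44.

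The gene starts behaved differently from each other. At the low-coordinate end of IFIT2, region 5 (chr10:89301383-89302908) had a peak in the 4 DMSO samples and in none of the 4 ACBI1 lists. The DMSO peaks were 1074 and 528 bp wide in H1975 and 1366 and 1488 bp in HCC44, and each spanned that end of the gene. The authors' fold enrichment is a ratio over background, and whether it is a peak height or a mean over the peak is not given. For these DMSO peaks it was 5.81 and 6.79 in the H1975 lists and 5.68 and 5.82 in those of HCC44. Their −log10 q placed them above 16.8% and 20.4% of the peaks of their own lists in H1975 and above 34.1% and 46.5% in HCC44. A non-coding gene, LOC105378419, has its high-coordinate end within the same region, at 89301903. Its strand was not at hand, so this may be its start or its end. The signal there and that of the IFIT2 end cannot be told apart.

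Genes with a start peak in each DMSO replicate seldom had one in neither ACBI1 replicate: 2.07% of 12013 genes in H1975 and 4.69% of 12213 in HCC44. Of the 4 IFIT genes with such a peak, IFIT2 was the one in each line with no peak there in both ACBI1 samples of the full lists. With a minimum −log10 q of 20, the IFIT3 start also had no peak in both HCC44 ACBI1 samples and was in 5 samples in all; with a minimum fold enrichment of 5 it was in 6. The contrast is the one the genes were chosen by, so nothing is read from this. The IFIT2 peak stayed in 4 of 8 samples with a minimum −log10 q of 20 and with a minimum fold enrichment of 5, and was in 0 of 8 when lists were limited to 22133 peaks.

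At the first start of IFIT3, region 6 (chr10:89327790-89328433) had a peak in 7 samples, all but ACBI1 replicate 2 of H1975. In H1975 its −log10 q was 41.1 and 28.9 under DMSO and 20.1 in ACBI1 replicate 1. In HCC44 it was 29.8 and 40.2 under DMSO and 12.2 and 19.2 under ACBI1. Ranks within a list are not comparable between treatments without care, since the DMSO lists are longer and a peak of the same strength takes a lower percentile once weaker peaks are missing from a list. Within their own lists these peaks ranked above 51.5% and 31.7% of peaks (H1975 DMSO), 19.4% (H1975 ACBI1), 46.7% and 70.7% (HCC44 DMSO), and 4.83% and 32.4% (HCC44 ACBI1). The HCC44 peak was narrower under ACBI1, 386 and 466 bp against 631 and 600 bp, and its upper end lay 344 and 358 bp after the start against 436 and 405 bp. The lower edge lay 194 bp before the start in both HCC44 DMSO samples and 41 and 107 bp before it in the ACBI1 samples. The 2 motif matches printed in capitals above, 156 to 113 bp before the start, were therefore inside the listed peak in the DMSO samples of both lines and in H1975 ACBI1 replicate 1, and outside it in both HCC44 ACBI1 samples.

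The second start of IFIT3, 89332529, had a peak in the 2 H1975 DMSO samples only, in region 7 (chr10:89332175-89332520). It was 344 and 346 bp wide, ended 10 and 9 bp before the start, and contained both motif matches of that promoter. It was among the weakest of the window, with fold enrichments of 3.79 and 4.30 and −log10 q above 7.60% and 6.45% of the list. Further into the IFIT3 body, region 8 (chr10:89337600-89337807) was likewise listed in the 2 H1975 DMSO samples only, with fold enrichments of 6.86 and 8.66. At 198 and 208 bp it was narrower than the narrowest peak of every HCC44 list and of H1975 ACBI1 replicate 1. Whether it lies in an exon or an intron was not analysed here.

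IFIT1 kept a listed peak at its start in all 8 samples, region 11 (chr10:89391985-89393276). Its −log10 q was 24.0 and 31.8 under DMSO and 28.1 and 38.5 under ACBI1 in H1975, and 32.1 and 32.2 and then 24.1 and 16.6 in HCC44. The rank within the list overlapped between treatments in H1975, with 23.1% and 36.8% of peaks below it under DMSO and 34.8% and 46.5% under ACBI1. In HCC44 the ranks were 51.5% and 56.5%, then 44.7% and 22.7%. Its width was the widest-ranging of the IFIT start peaks, 961 and 330 bp under DMSO and 797 and 177 bp under ACBI1 in H1975, and 1251 and 1275 bp and then 580 and 1009 bp in HCC44. The peak was in 7 of 8 samples with a minimum −log10 q of 20 and also with a minimum fold enrichment of 5, each time without HCC44 ACBI1 replicate 2. In HCC44 ACBI1 replicate 1 the peak ended 10 bp before the start. Both motif matches of IFIT1 were inside the peak in all 8 samples.

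IFIT5 also kept its peak in all 8 samples, region 12 (chr10:89414270-89415480), the strongest of the IFIT starts. Its −log10 q was 86.4 and 68.1 under DMSO and 61.9 and 44.8 under ACBI1 in H1975, and 53.5 and 53.4 and then 41.3 and 35.0 in HCC44. It ranked above 84.1% and 74.2% of peaks under DMSO and 63.9% and 52.5% under ACBI1 in H1975, and above 79.8% and 86.0% and then 71.9% and 65.2% in HCC44. Its width changed little, from 1045 to 1207 bp over the 8 samples, and it held both motif matches in each. The longest form of LIPA, the gene of lysosomal acid lipase, starts on the other strand at 89414679, inside the same peak. The signal of the IFIT5 start and that LIPA start cannot be told apart. IFIT1B had no peak at its start or in its body in any of the 8 samples.

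**Figure D3:**
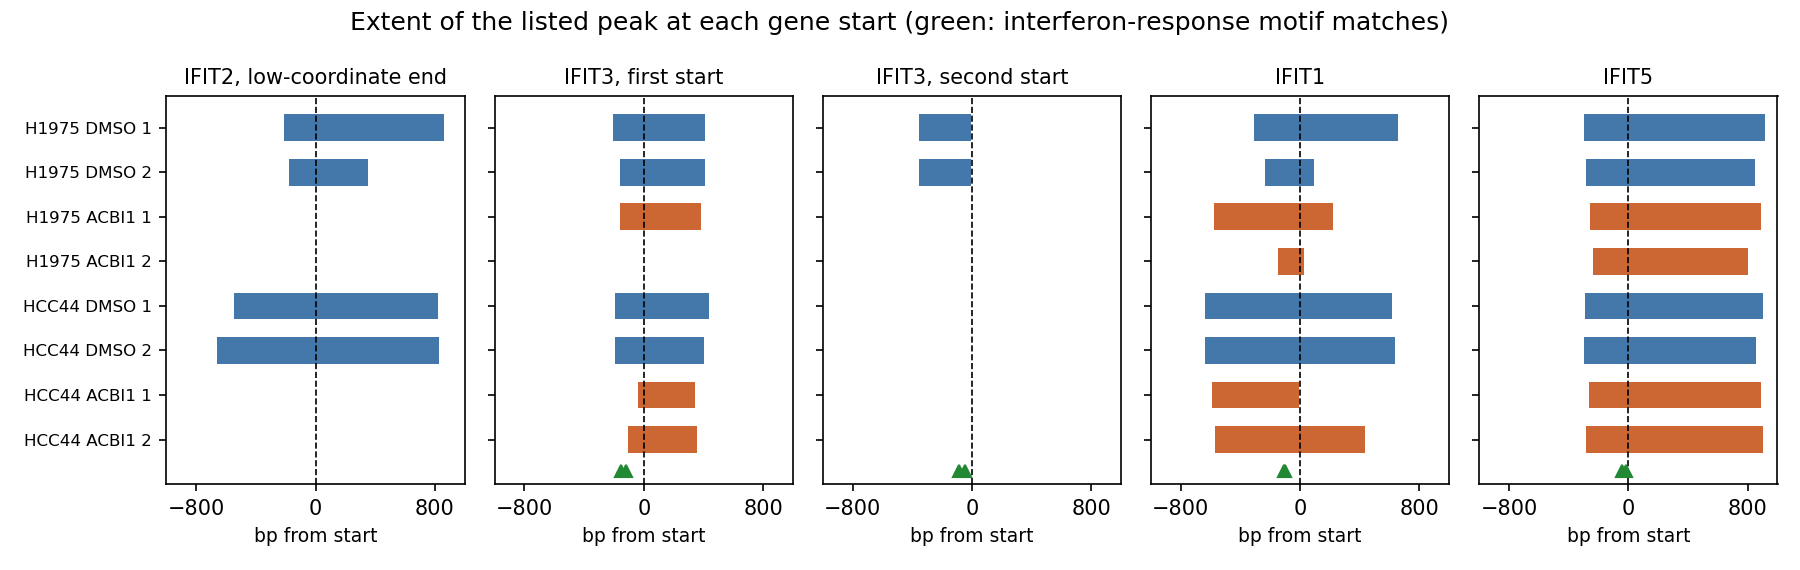
Extent of each listed peak within 1 kb of a start, in bp from the start (0, dashed), one row per sample, blue for DMSO and orange for ACBI1; green triangles mark the motif matches, which were not searched at IFIT2, and the IFIT1B start, without peaks, is left out. Peaks of HCC44 ACBI1 samples at the first IFIT3 start begin to the right of both triangles, and the IFIT5 peak has nearly the same extent in all 8 rows.

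Between the genes, region 10 (chr10:89374093-89374959) lay 3097 bp before the start of IFIT1B and had a peak in the 4 DMSO samples and in 0 ACBI1 samples. It had fold enrichments of 7.05 and 6.97 in the H1975 lists and 5.92 and 5.10 in the HCC44 lists. With the IFIT2 region it was 1 of the 2 regions lost in both lines. The annotated span of LIPA (chr10:89213572-89414679) overlaps regions 1 to 12 and holds IFIT2, IFIT3, IFIT1B and IFIT1. Region 3 (chr10:89278076-89278464), inside the span of LIPA and below IFIT2, was listed in both H1975 DMSO samples and in HCC44 DMSO replicate 1, and in no ACBI1 sample. Region 9 (chr10:89351055-89352597), between IFIT3 and IFIT1B, was listed in the 2 HCC44 DMSO samples only, 1355 and 1543 bp wide. Region 14 (chr10:89466718-89467068), inside SLC16A12, a monocarboxylate transporter gene, was listed in the 2 H1975 DMSO samples only. Region 4 (chr10:89283456-89285592), at the start of the non-coding LOC124902477, was listed in both HCC44 DMSO samples and in HCC44 ACBI1 replicate 1. Region 13 (chr10:89426350-89426685), between IFIT5 and SLC16A12, was listed in H1975 ACBI1 replicate 1 alone, with a fold enrichment of 5.85.

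In the H1975 DMSO lists the ranks of lost and retained regions overlapped. Region 3 ranked above 61.8% and 58.7% of peaks and was lost, while the retained IFIT1 start ranked above 23.1% and 36.8%. The other lost regions of H1975 ranked lower than region 3, from 5.90% (region 14) to 54.3% (region 8). In the HCC44 DMSO lists the ranks also overlapped within single replicates. Lost region 9 outranked retained region 6 in replicate 1 (55.1% against 46.7%) and retained region 2 in replicate 2 (50.1% against 40.5%). No lost region outranked the same retained one in both replicates. The lost regions 5, 9 and 10 ranked above 34.1% and 46.5%, 55.1% and 50.1%, and 36.8% and 23.4% of peaks. The retained regions 1, 6, 11 and 12 ranked above 46.7% to 88.8%, and region 2 above 63.4% and 40.5%. Region 2 (chr10:89260354-89261203), inside LIPA and 8579 bp from its nearest start, was the one region with a peak in all 8 samples that was not at a gene start. It had fold enrichments from 5.96 to 8.27.

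**Figure D4:**
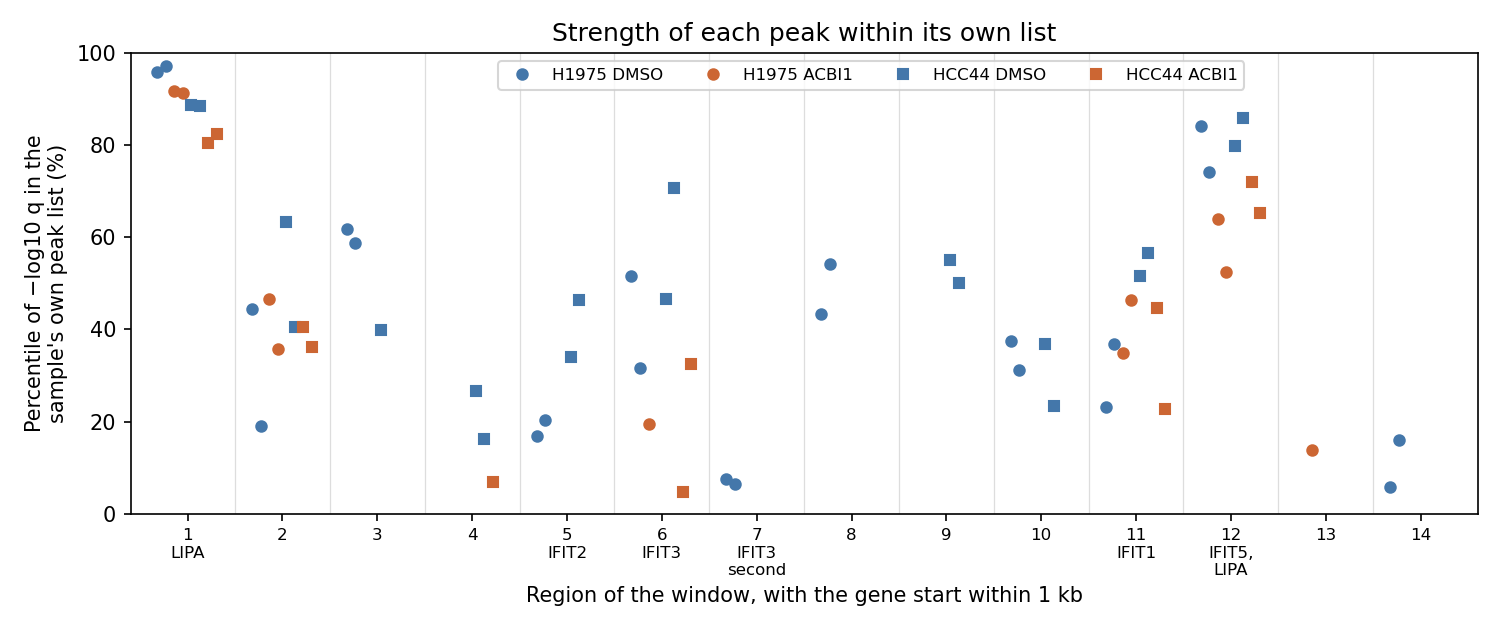
Percentile of −log10 q of each region's peak within its own sample's list (vertical axis, %) for the 14 regions of the window (horizontal axis); circles are H1975, squares HCC44, blue DMSO and orange ACBI1, and a missing symbol means that no peak was listed. Regions 1, 2, 11 and 12 carry 8 symbols each, and region 5 at IFIT2 carries 4 DMSO symbols between 16.8% and 46.5%.

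Region 1 (chr10:89251281-89252183) sat on the edge of the 50 kb limit and holds the LIPA start at 89251775. It was listed in all 8 samples and was the strongest of the window, above 80.5% to 97.1% of peaks. Just outside the limit, the CH25H start, of the gene for cholesterol 25-hydroxylase, lies in a region (chr10:89206905-89208311) with a peak in all 8 samples. On the other side the first regions listed in more than 1 sample, chr10:89515339-89516477 and chr10:89553347-89554654, both inside SLC16A12, had a peak in the 4 DMSO samples and in 0 ACBI1 samples. The start of PANK1, a pantothenate kinase gene, had a peak in all 8.

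The lines were also compared. The choice of genes did not use this contrast, but it used the IFIT3 counts of these samples, whose peaks are among those of the window. The mean number of peaks in the window, averaged over treatments, differed by −0.50 between HCC44 and H1975 (HCC44 minus H1975) (exact permutation test, two-sided, lines permuted within treatment, p = 0.722). The smallest p of the 36 arrangements is 0.0556, so this test could not have reached 0.05. The average joins opposite signs: the means were 9.50 in HCC44 and 11.0 in H1975 under DMSO, and 5.50 and 5.00 under ACBI1. With DMSO, both HCC44 samples had fewer peaks in the window than both H1975 samples, and they covered more of it, 8514 and 9738 bp against 6287 and 5358 bp. The median width over the whole lists was also larger, 634 and 671 bp in HCC44 and 551 and 510 bp in H1975 under DMSO. So was the smallest gap between peaks of a list, 1005 and 1064 bp in HCC44 and 768 and 711 bp in H1975. Joining peaks within 1200 bp left the DMSO window counts at 10 and 9 in HCC44 and 11 and 11 in H1975. The parts of peak width and gap in the peak number and the covered length were not tested. Around single genes under DMSO, IFIT1B and IFIT5 had fewer peaks in both HCC44 than in both H1975 samples, an order found in 17.1% of 18044 genes, and IFIT1 had more, found in 36.9%. Of the 11 regions with a peak in both H1975 DMSO samples, 3 (regions 7, 8 and 14) had one in neither HCC44 DMSO sample, against 18.1% of 38006 regions over the genome. Of the 9 in both HCC44 DMSO samples, 2 (regions 4 and 9) had one in neither H1975 DMSO sample, against 29.2% of 45148. The narrowest peak of each DMSO list was 251 and 265 bp wide in HCC44 and 191 and 177 bp in H1975. The H1975 peaks of region 8 (198 and 208 bp) and, in replicate 1, of region 14 (204 bp) were narrower than any HCC44 DMSO peak. The part of this width limit in their absence from the HCC44 lists was not tested.

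A list of 22 genes held members of the pathway to IFIT induction and regulators of it, such as IRF2, USP18 and SOCS1. The members run from the sensors CGAS, RIGI and IFIH1 through STING1, MAVS, TBK1 and IRF3 to the interferon receptor, JAK1, TYK2, STAT2 and IRF9. Of the 22, 20 had a start peak in each DMSO replicate of each line, and all 20 had it in both ACBI1 samples. Over all genes, 2.07% (H1975) and 4.69% (HCC44) had it in neither, so a list of this size would hold few or none, and nothing is read from this count. Within 50 kb, 10 of 20 genes with peaks had fewer in both ACBI1 samples and 2 had more in H1975, with a median difference of −1.0, and 14 of 20 had fewer and 0 more in HCC44, with a median of −1.50. The shares over all genes were 50.6% and 64.1% with fewer peaks, and the medians were the same, −1.0 and −1.50. By the mean over both lines, the largest difference was at IRF1, an activator of interferon-response elements, with 6 and 4 and then 3 and 3 peaks in H1975, and 10 and 9 and then 3 and 3 in HCC44. IKBKE, IRF2, MAVS and RIGI followed, each with a mean difference over both lines of −2.75, and STAT2 had the same value. In H1975 alone the difference at IRF1 was smaller than at STAT2, which had 9 and 8 and then 5 and 4 peaks.

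Of 30 other interferon-stimulated genes, 24 had a start peak in both DMSO samples of H1975, of which 17 kept it in both ACBI1 samples and 5 had it in neither (MX2, OAS1, IFITM1, SAMD9 and GBP1). In HCC44, 25 had one, of which 21 kept it and 3 had it in neither (OAS1, IFITM2 and BST2). Over all genes the share with it in neither was 2.07% in H1975 and 4.69% in HCC44, and the difference between the list and all genes was not tested. OAS1, a synthetase that activates RNase L, was the one gene on both lists of losses, as IFIT2 was among the IFIT genes; these names were picked after their values were seen. Within 50 kb, 20 of 29 genes had fewer peaks in both ACBI1 samples in each line, with a median difference of −1.50 in both, where all genes had shares of 50.6% and 64.1% and medians of −1.0 and −1.50. Some of these genes are neighbours that share peaks, such as SAMD9 and SAMD9L, or IFI44 and IFI44L, whose counts were equal in all 8 samples. The 29 counts are therefore not independent. IFIH1 is on both pathway lists. By the mean over both lines, PARP9, SAMD9L, ISG20, MX1 and SAMD9 had the largest differences. At PARP9, 9 and 8 peaks under DMSO stood against 5 and 3 under ACBI1 in H1975, and 9 and 11 against 2 and 2 in HCC44.

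The peak counts around IFIT3 over the 8 samples were compared with those of 19966 protein-coding genes outside the window, by the sum of absolute differences. The nearest were ACSL5, GALNTL6 and ZDHHC6, each at a sum of 2 peaks, and CCL22 and HADHA at 3, a distance that 9 genes reached or bettered. ACSL5 and ZDHHC6 are neighbours on chromosome 10 whose windows overlap. GALNTL6 had 6 and 6 and then 0 and 0 peaks in H1975, and 6 and 5 and then 1 and 1 in HCC44.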

How the data were processed

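ATAC-seq peak lists, 1 per sample, were deposited for 8 samples. Per the submitters' processing notes, BWA and the hg38 build were used; the peak caller and its filters are not given in the sources used here. The authors deposited, in the broadPeak layout without a header, a fold enrichment per peak (a ratio over the caller's background), and a p-value and a q-value as −log10, which here served for describing, ranking and filtering peaks of the same list. The deposited score column was not used.

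Genes came from RefSeq tables of GRCh38.p14. Peaks were counted where they overlapped a window by at least 1 bp. A start was an entry of the promoter table, or either gene end where a gene had none, with 1 kb either side. Regions were merged overlapping peaks. Named were the 5 genes, all regions of the window, up to 5 genes per pathway list by the size of the fall and the 5 genes nearest to IFIT3. The members and lists were chosen with earlier results of these data known. Alternatives were a minimum −log10 q of 20, a minimum fold enrichment of 5, joining within 1200 bp, equal list lengths, windows of 10 and 100 kb, leaving out each replicate, and a replicate block; those for single starts were added after seeing the data. Python 3.11.15, numpy 2.4.6, pandas 2.3.3, scipy 1.17.1 and matplotlib 3.10.9 were used, and the overlap functions were tested on simulated lists. Some items of the lists are not reported here.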

Additional observations from a re-analysis of the deposited data

How the results depend on the processing

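Keeping only as many peaks per list as the shortest held, by −log10 q, changed most. The window difference between ACBI1 and DMSO was then 0 in H1975 and 1.00 in HCC44, the opposite sign to the −4.00 of the full lists, with 1 and 0 regions lost and 2 and 2 retained. This setting removes the weaker peaks of the longer DMSO lists by construction. It also left the IFIT3 start peak in 3 and the IFIT1 start peak in 5 of 8 samples, and the IFIT5 start peak in 8. A window of 10 kb either side gave differences of −4.00 and −3.00, with 2 and 3 regions retained in H1975 and HCC44, and one of 100 kb gave −6.00 in HCC44. In HCC44 a minimum −log10 q of 20 gave −5.00, and this and a minimum fold enrichment of 5 each left 3 regions retained. Joining peaks within 1200 bp changed no window count. Leaving out each replicate in turn gave differences of −7.00 to −5.00 (H1975) and −4.50 to −3.50 (HCC44), 6 to 7 and 3 to 4 regions lost, and 4 to 5 and 5 to 6 retained. The difference between lines ran from −1.0 to 0 without 1 replicate, and was 0 with a window of 100 kb and −1.50 with a minimum fold enrichment of 5 (exact permutation p = 0.167).

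With a replicate block, lines were swapped only between samples of the same number, and the lines differed by −0.50 (p = 0.750, two-sided, by exact permutation over 16 arrangements, of which 0.125 is the smallest possible p). Across genes, the deviations of same-numbered replicates correlated between the lines at −0.005 with DMSO and 0.013 with ACBI1. Such a correlation does not register an offset common to all genes. Replicate 1 had the longer list in every group: 43525 against 41027 peaks (H1975 DMSO), 27682 against 22133 (H1975 ACBI1), 50347 against 49945 (HCC44 DMSO) and 26313 against 24862 (HCC44 ACBI1). The sample titles carry a prefix shared by all replicates of the same number, in both lines and both treatments, and what it marks is not stated. Whether same-numbered samples share a batch therefore remains unknown. For ACBI1 against DMSO no paired analysis was made, since that contrast has no test. Peak lists without read numbers limit what can be said of a region that is not listed.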
